A study of Vigna unguiculata with 30 samples.

Results

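The step from bottom to middle leaves of the canopy of cowpea (Vigna unguiculata, a grain legume) was followed at developmental stage R3, in 5 middle and 5 bottom leaf libraries out of the 30 of the series. The 10 libraries were chosen by their titles, which give position and stage, and the raw count columns were matched to them by the library number in the sample description. All plants were of the line IT97K-499-35 and grew in the soil of a greenhouse, with irrigation, fertilizer and supplemental light and no other treatment named in the labels. R3 leaves were sampled at 6.5 weeks from planting. The comparisons below also use middle and bottom leaves at R1 (5.5 weeks) and top leaves at both stages, 5 libraries each. The labels call the replicates biological but do not say that each came from its own plant, so p-values measure the spread between these samples.

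In a legume canopy new leaves form at the top, and the lower leaves are the older and more shaded ones. Upper leaves carry most of the photosynthesis, while lower leaves can export nitrogen and other nutrients to younger leaves and, in the reproductive (R) stages, to flowers and pods. The labels record position only, not the age of a leaf or the light that reached it, so these cannot be told apart here. RNA came from leaf punches, in which fewer cells of a type and less RNA per cell cannot be told apart either. The gene identifiers come without names or products, and none of the 31948 gene models matched the RefSeq table used. No marker of leaf or of any cell type could therefore be looked up, no pathway could be followed, and 4 gene models are named below by identifier. The identifiers carry the suffix of annotation version 1.2, left off here. Coordinates are as deposited; no source used here names their genome build.

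The 10 libraries held 10.6 to 17.4 M counts (12.9 ± 1.44 M in middle and 14.7 ± 2.22 M in bottom leaves, mean ± SD, n = 5). Thinned to an equal depth, middle libraries had 22220 ± 142 and bottom libraries 22266 ± 222 gene models with at least 1 count. The 10 gene models with most counts took 8.87% ± 1.85 of a middle library and 5.96% ± 1.12 of a bottom library (two-sided exact permutation p = 0.0238, or 0.143 after adjustment over 6 library measures). The scaling factor of each library (trimmed mean of M values, TMM) was 0.966 ± 0.0926 in middle and 1.10 ± 0.0824 in bottom leaves (exact permutation p = 0.0476, adjusted 0.143). Neither passed the correction, nor did total counts (adjusted exact permutation p = 0.31), gene models detected (0.714), the share of counts from single-exon gene models (0.714) or that from unplaced contigs (0.222). Levels below are in CPM, the count of a gene model per 1 M counts of a TMM-scaled library. On the first principal component of log2(CPM + 1) in these 10 libraries, which held 42.8% of the variance, the bottom libraries scored from -62.3 to -8.70 and the middle libraries from -3.93 to 81.4. Bottom replicate 3 (-8.70) and middle replicate 4 (-3.93) were the bottom and the middle library nearest to each other. The spread within the groups was similar, with a median SD of log2 CPM over gene models of 0.325 in middle and 0.36 in bottom leaves.

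Middle leaves differed from bottom leaves in 4570 of 20284 tested gene models, 22.5% (edgeR quasi-likelihood test, Benjamini-Hochberg adjusted p under 0.05). At an unadjusted p under 0.05 the count was 7118 (35.1%). Of the 4570 called, 2593 (12.8% of those tested) were higher and 1977 (9.75%) lower in the middle. With TMM scaling the increases were the larger ones. The median log2 fold change was 1.11 among the higher gene models (middle 50% from 0.71 to 1.67) and -0.85 among the lower ones (-1.5 to -0.49), beside -0.05 over all tested. At least 2-fold differences made up 2309 of the calls (11.4% of gene models tested), 1460 higher (7.2%) and 849 lower (4.19%). Differences of 8-fold or more were found in 178 higher and 95 lower gene models. In 1424 of the higher and 823 of the lower gene models the CPM ranges of the 5 middle and the 5 bottom libraries did not overlap. Over all tested gene models, called or not, the ranges did not overlap in 13.2%, 7.99% with the middle above and 5.19% with the middle below.

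Leaving out 1 of the 10 libraries at a time gave 3184 to 5309 calls (4874 without bottom replicate 3 and 5309 without middle replicate 4), and the lower calls rested most on single libraries, with 1039 when bottom replicate 1 was dropped and 1253 and 1273 when middle replicate 1 or 2 was. Scaling by library size alone, without TMM, moved the median of all tested from -0.05 to -0.23 (log2). It moved the split to 1866 higher and 3491 lower, so the balance of the directions depends on the scaling. The same shift bears on the sizes of the increases and decreases, whose medians were not taken under that scaling.

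**Figure D1:**
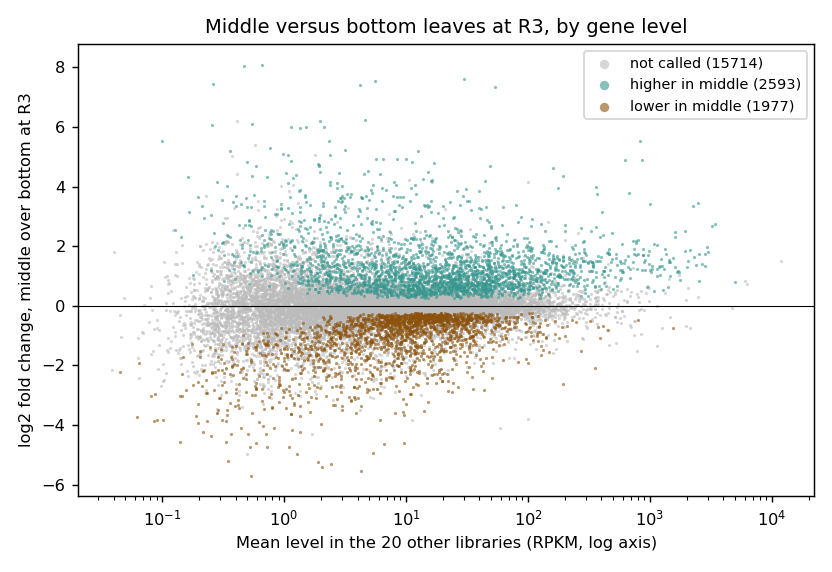
Log2 fold change of middle over bottom leaves at R3 against the mean level of each gene model in the 20 libraries of the other 4 groups (RPKM, counts per kilobase of exon and library size, log axis). Each point is 1 of the 20284 tested gene models, and coloured points are the 2593 called higher and the 1977 called lower. At 100 RPKM and above 389 coloured points lie above 0 and 48 below.

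Abundant transcripts, where they differed, were mostly higher in the middle. Gene models were put in classes by their mean level per length in the 20 libraries outside the comparison, so that the level did not come from the values tested. Of bottom leaves, these 20 hold those of R1 alone, the rest being middle and top leaves. The gene models called higher averaged -0.57 in bottom leaves at R1 (log2 CPM centred per gene). They averaged 0.29 in middle and 0.62 in top leaves at R1, and 0.60 in top leaves at R3. The classes are thus not independent of position, and a rise towards the upper leaves itself raises a gene model's class. How far this shaped the shares below was not tested. Of 973 gene models at 100 RPKM or more, 389 (40%) were higher and 48 (4.93%) lower in the middle, with a median log2 fold change of 0.37. Between 10 and 100 RPKM, 1256 of 7695 were higher and 894 lower. Between 1 and 10 RPKM the directions were nearly even, with 822 higher and 856 lower of 9009. The share of calls that were higher thus went from 49% to 58.4% to 89% with the level. Without TMM scaling that share was lower in each class, at 26.2%, 35% and 78.2%, and had the same order. Leaving out 1 library at a time, 328 to 409 of the class at 100 RPKM or more were higher and 29 to 54 lower, the fewest lower ones without bottom replicate 1.

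The 50 gene models with the highest level per length in the other 20 libraries all stood at 1268 RPKM or more there. Of these, 36 were higher, 1 was lower and 13 were not called, and their log2 fold changes ran from -0.76 to 3.45 with a median of 1.33. Together the gene models at 100 RPKM or more took 56.9%, 54.4%, 48.8%, 41.1% and 50.7% of the counts in middle replicates 1 to 5. In bottom replicates 1 to 5 they took 37.3%, 37.3%, 44%, 34.7% and 36.9%. The ranges overlapped through middle replicate 4 and bottom replicate 3, the libraries that also met on the principal component. At R1 the same gene models took 50.8% ± 2.8 of the counts in middle and 42% ± 4.59 in bottom leaves. Of the 973, 139 were higher and 30 lower in the middle there, which is 82.2% of calls higher. The R1 libraries are among the 20 that set the classes. The stepwise order of the classes seen at R3 was not found at R1, where the share of calls that were higher was 63.5% between 1 and 10 RPKM and 59.8% between 10 and 100 RPKM.

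**Figure D2:**
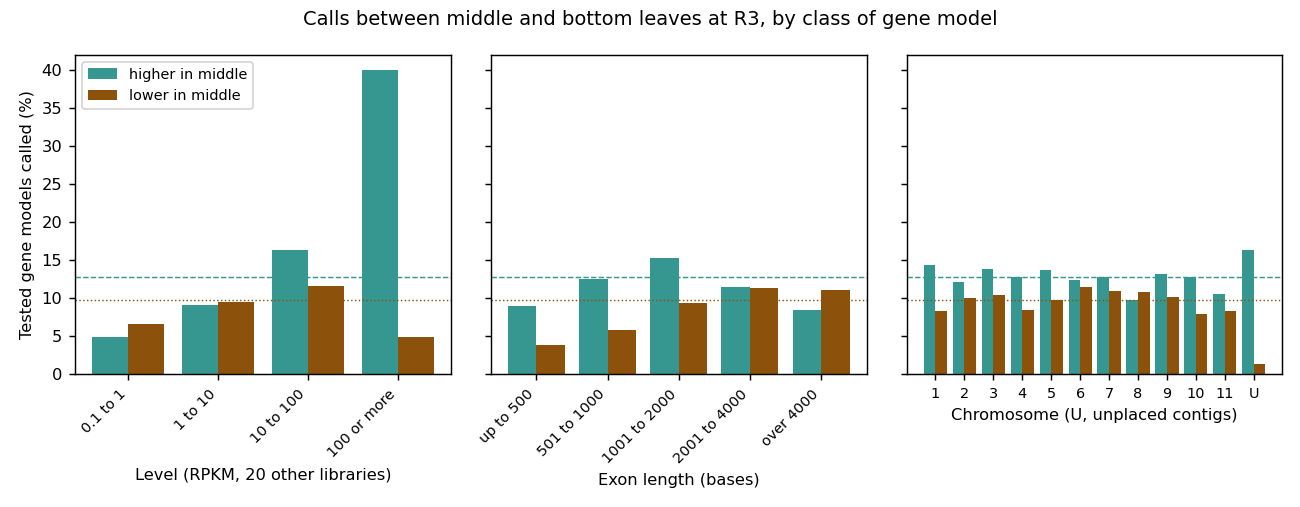
Percent of tested gene models called higher (teal) or lower (brown) in middle than in bottom leaves at R3, by mean level in the 20 other libraries, by exon length and by chromosome, for classes of at least 100 gene models. The dashed line (12.8%, higher) and the dotted line (9.75%, lower) are the shares over all tested gene models, and the class at 100 RPKM or more stands at 40% higher.

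The structure of the gene models went less with the direction than their level did. Among gene models with up to 1000 bases of exon, 298 of 2572 were higher and 137 lower, and among those over 4000 bases, 123 of 1453 were higher and 161 lower. The share of calls that were higher was thus 68.5% in the shorter and 43.3% in the longer class. Leaving out 1 library at a time, it ran from 65.1% to 78.5% in the shorter and from 32.7% to 57.7% in the longer class. Without bottom replicate 1 the longer class had more higher (94) than lower (69) calls, beside 2184 higher and 1039 lower over all tested. By library size alone, which moved all classes down, the shorter class had 238 higher and 276 lower and the longer class 74 and 339, or 46.3% and 17.9% of calls higher. The shares varied less with the number of exons. Single-exon gene models were higher in 10.9% and lower in 10.1%, and those with 6 to 10 exons in 14.3% and 9.64%. Within the class of 10 to 100 RPKM, from 13.2% (20 or more exons) to 17% (6 to 10 exons) were higher and from 10.7% (2 exons) to 14.3% (20 or more exons) were lower. The 11 chromosomes ranged from 9.76% (chromosome 8) to 14.4% (chromosome 1) higher, and from 7.99% (chromosome 10) to 11.4% (chromosome 6) lower. In this fit chromosome 8 was the one chromosome with more lower (171) than higher (155) gene models. Calls by chromosome were not counted under other scalings or without single libraries.

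Few gene models on unplaced contigs were lower in the middle. Those tested had a median level of 1.96 CPM in the 20 other libraries, against 13.1 to 17.7 CPM on the 11 chromosomes. The shares over all tested given beside them are therefore not those of gene models of a like level. Of 221 tested, 3 were lower (1.36%, beside 9.75% of all tested) and 36 higher (16.3%, beside 12.8%), with a median log2 fold change of 0.50. By library size alone 8 were lower (3.62%) and 27 higher (12.2%). Their summed level was 2389, 2145, 1587, 1241 and 2517 CPM in middle replicates 1 to 5 and 1779, 1131, 1790, 959 and 1032 CPM in bottom replicates 1 to 5, so the groups overlapped. The count of higher ones was 21 to 24 without any 1 of bottom replicates 2, 4 and 5 or middle replicates 1 and 2, and 49 without bottom replicate 3. In the fits with 21 to 24 higher ones these made up 9.5% to 10.9% of the 221. Over all gene models, higher calls in those fits ran from 1931 of 20576 (without middle replicate 1) to 2446 of 20522 (without bottom replicate 4). The higher calls were thus near the background in each of these fits. When the 10 libraries were fitted by themselves, 142 were tested, with 19 higher (13.4%) and 1 lower. Beside these stood 2027 higher and 1644 lower of 18503 over all. At R1, 42 of the 221 (19%, beside 5% of all tested) were called higher in the middle and the others were not called. The R1 libraries are other samples, but the 221 had passed a filter over all 6 groups, those at R1 among them. A gene model could thus be tested because it was high in the middle at R1, so the R1 count is no independent support. What these contigs carry is not given in the deposited table.

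Vigun08g219000 (chromosome 8, 37836506 to 37837738, minus strand, 2 exons) had the largest rise among the 1263 gene models that were called higher with ranges apart and at least 5 CPM in the middle. Its level in bottom replicates 1 to 5 was 0.411, 0.207, 0.446, 0.153 and 0.353 CPM, from 24 counts in all. In middle replicates 1 to 5 it was 180, 107, 11.4, 2.36 and 6.33 CPM. Every middle library stood above every bottom library, but the middle libraries differed among themselves far more than the bottom ones did. The log2 fold change was 7.62 (SE 1.67, edgeR adjusted p = 0.0019). Without middle replicate 1 it was 6.67, and the call held in each of the fits that leave out 1 library. At R1 it was 0.796 ± 0.986 CPM in bottom and 17.3 ± 28.6 CPM in middle leaves (log2 fold change 4.35, SE 1.43, adjusted p = 0.058). Top leaves at R3 held 73.1 ± 118 CPM, an SD again larger than the mean.

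Vigun07g296000 (chromosome 7, 40641707 to 40644356, plus strand, 7 exons) had the highest mean CPM among the 860 gene models called at least 2-fold higher with ranges apart. Per length, at 3131 RPKM over the 10 libraries, it ranked 7 among all tested. Middle replicates 1 to 5 were even, at 10557, 10472, 9378, 10569 and 11659 CPM. Bottom replicates 1 to 5 stood at 260, 41.6, 4116, 3153 and 667 CPM. The groups did not overlap, while the bottom libraries differed widely, with replicates 3 and 4 high and replicate 2 lowest. The log2 fold change was 2.68 (SE 0.91, edgeR adjusted p = 0.035). This call lies near the threshold: it was lost when bottom replicate 1, 2 or 5 was dropped (edgeR adjusted p = 0.089, 0.058 and 0.082), when middle replicate 1, 2 or 5 was dropped (0.059, 0.056 and 0.054), and when the 10 libraries were fitted by themselves (0.077). Without bottom replicate 3 the log2 fold change was 3.35. Top leaves at R3 held 10814 ± 5545 CPM.

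In the other direction, Vigun08g210900 (chromosome 8, 37267836 to 37275991, minus strand, 8 exons) had the largest fall among 755 gene models with ranges apart and at least 5 CPM in the bottom. Its level in bottom replicates 1 to 5 was 58.3, 77.1, 5.16, 29 and 35 CPM. In middle replicates 1 to 5 it was 0.577, 0.599, 1.5, 1.46 and 0.0989 CPM. Bottom replicate 3 was the lowest of its group and still above every middle library. The log2 fold change was -5.53 (SE 0.85, edgeR adjusted p = 7.8e-05). At R1 it was 39.7 ± 42.4 CPM in bottom and 1.40 ± 0.505 CPM in middle leaves, a log2 fold change of -4.80 (SE 0.81, adjusted p = 0.0027). Top leaves at R3 held 1.08 ± 0.851 CPM.

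Vigun05g166500 (chromosome 5, 27685102 to 27730010, plus strand, 49 exons) had the highest mean CPM among the 359 gene models called at least 2-fold lower with ranges apart. Its 14047 bases of exon add to its CPM, and per length, at 126 RPKM, it ranked 719. Bottom replicates 1 to 5 stood at 3842, 3395, 1839, 1418 and 2164 CPM, and middle replicates 1 to 5 at 999, 891, 1129, 967 and 1052 CPM. The middle libraries were close together and all below the bottom ones. The log2 fold change was -1.33 (SE 0.36, edgeR adjusted p = 0.0086). Top leaves at R3 were lower again, at 467 ± 195 CPM, and R1 leaves held 1644 ± 860 CPM at the bottom, 773 ± 197 in the middle and 347 ± 96.9 at the top.

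**Figure D3:**
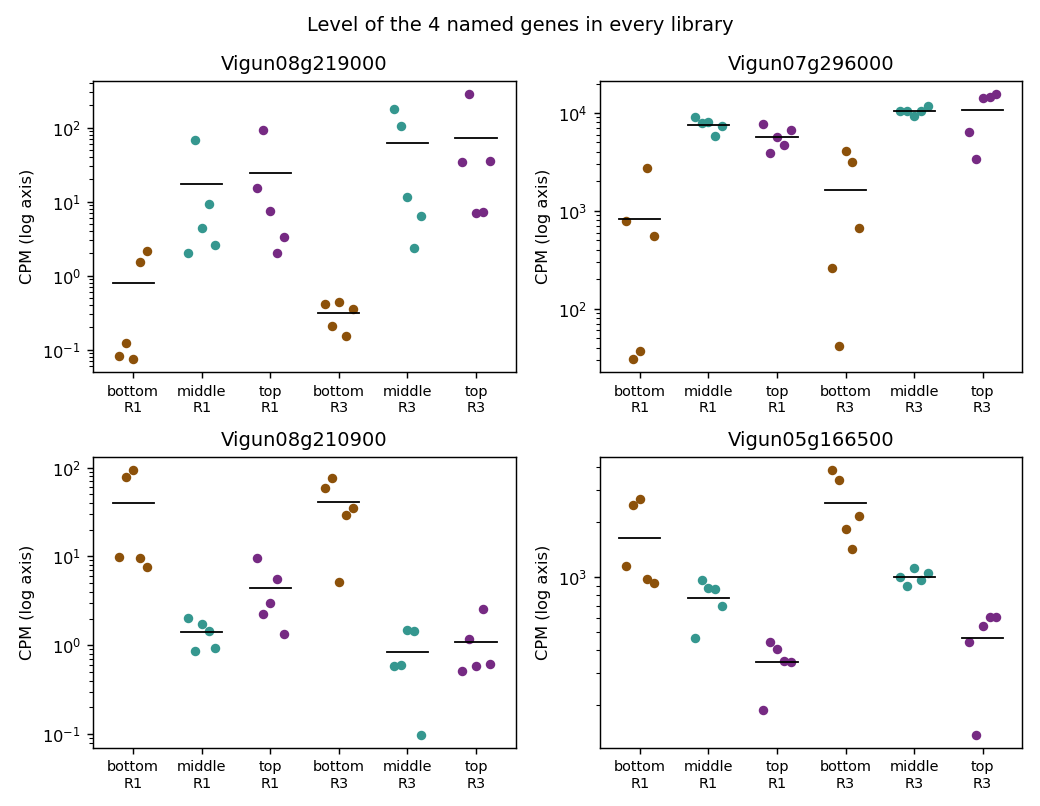
CPM (log axis) of the 4 named gene models in each of the 30 libraries, by position and stage, with a line at each group's mean. Vigun08g219000 and Vigun07g296000 are higher and Vigun08g210900 and Vigun05g166500 lower in every middle than in every bottom library at R3.

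Taken as lists, the called gene models separated the 10 libraries unevenly. For each library the log2 CPM of the 2593 higher gene models was averaged after centring each gene over the 30 libraries, as a description of the values that chose them. Middle replicates 1 to 5 stood at 0.57, 0.35, 0.11, -0.36 and 0.05. Bottom replicates 1 to 5 stood at -1.12, -1.23, -0.77, -1.07 and -1.25. Middle replicate 4 was the lowest of its group and bottom replicate 3 the highest of its own. The 1977 lower gene models gave the mirror image, from -0.26 to 0.17 in middle and from 0.48 to 1.49 in bottom libraries, with bottom replicate 1 the highest. In R1 libraries, which took no part in the contrast, the higher list averaged -0.57 ± 0.37 at the bottom, 0.29 ± 0.14 in the middle and 0.62 ± 0.11 at the top. The lower list stood at 0.41 ± 0.29, -0.20 ± 0.21 and -0.55 ± 0.16 there.

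**Figure D4:**
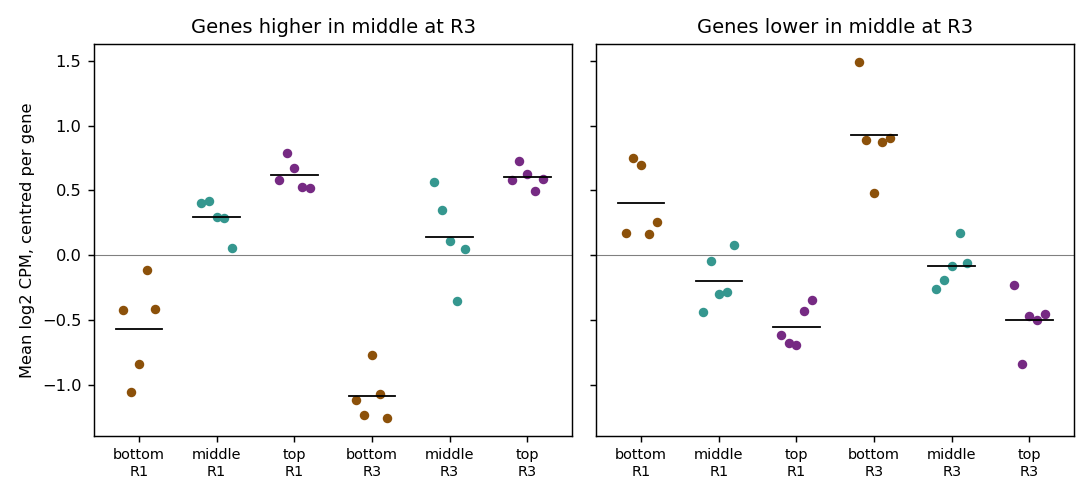
Mean log2 CPM, centred per gene over the 30 libraries, of the 2593 gene models higher (left) and the 1977 lower (right) in middle than in bottom leaves at R3. Each point is 1 library and each line a group's mean; middle replicate 4 (-0.36, left) is the lowest middle library at R3 and bottom replicate 3 (-0.77, left) the highest bottom one.

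The same step was called in fewer gene models at R1, where 1581 passed (7.79%), 1015 higher (5%) and 566 lower (2.79%) in the middle. By library size alone the R1 split was 789 higher and 1861 lower. The R1 count also rested on single libraries: dropping bottom replicate 2, 3 or 4 at R1 gave 470, 460 and 2485 calls, and dropping middle replicate 1, 2, 3 or 4 at R1 gave 819, 635, 958 and 924. The median SE was 0.26 at R3 and 0.25 at R1. Both steps come from 1 fit with a shared estimate of the spread and 5 libraries per group. Their SEs are therefore close by design and do not compare the precision of the stages. Within groups at R1, the median SD of log2 CPM was 0.291 in middle and 0.358 in bottom leaves. The median size of the log2 fold change over all tested was 0.37 at R3 and 0.29 at R1. Of the gene models higher in the middle at R3, 797 were also called higher at R1, which is 30.7% of the R3 list and 78.5% of the R1 list. Of the lower ones 418 were shared, 21.1% of the R3 list and 73.9% of the R1 list. Counting sign alone, 2567 of the 2593 higher and 1909 of the 1977 lower gene models had the same sign at R1. The lists chosen at R3 had smaller median log2 fold changes at R1 (0.64 and -0.45, against 1.11 and -0.85). The lists chosen at R1 had 1.19 and -0.77 at R1 and 1.35 and -0.72 at R3. Values of the stage that chose a list are raised by that choice, so these medians do not compare the stages.

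The difference between the stages was therefore tested itself, as the middle to bottom step at R3 minus that at R1. It passed in 0 of 20284 gene models (0%; edgeR, smallest adjusted p = 0.34), and 927 (4.57%) had an unadjusted p under 0.05. DESeq2 called 4. The larger number of calls at R3 is thus not shown to be a difference in any 1 gene model. The median SE of this contrast was 0.36, above that of either step. The 4 named gene models had adjusted p = 1 in this test.

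**Figure D5:**
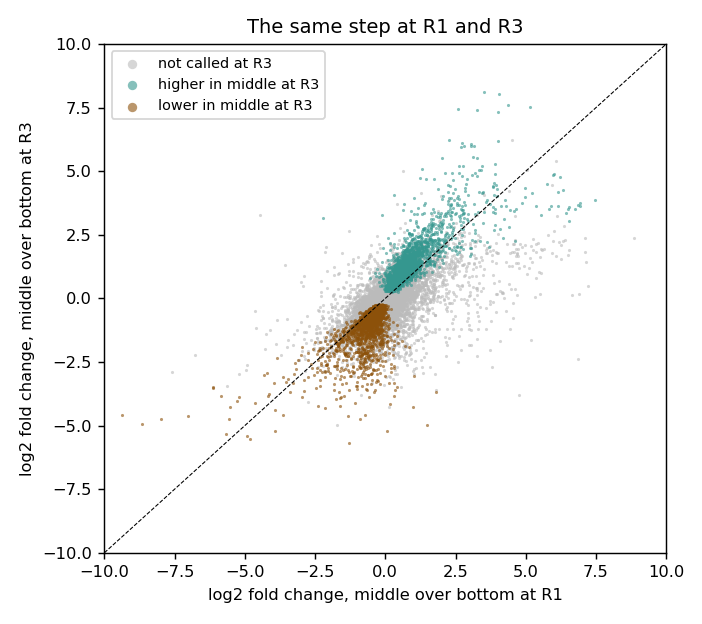
Log2 fold change of middle over bottom leaves at R1 (horizontal) and at R3 (vertical) for the 20284 tested gene models, with those called at R3 coloured. No library is shared between the axes; 2567 of the 2593 higher points lie right of 0, and the dashed line marks equal change.

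Middle leaves at R3 were also set against the midpoint of bottom and top leaves on the log2 scale. By edgeR 0 gene models were called as departing from it (0%, smallest adjusted p = 0.075), and 2026 (9.99%) had an unadjusted p under 0.05. DESeq2 called 53, of which 30 lay above the midpoint and 23 below. The lack of edgeR calls does not place the middle at the midpoint. Top leaves at R3 had the widest spread of the 6 groups, with a median SD of log2 CPM of 0.444. The edgeR count was 12 without bottom replicate 3 and 11 without middle replicate 4, and 2 and 8 without bottom replicates 2 and 4 at R1, which enter the shared estimate of the spread; all of these lay above the midpoint. Side by side, with the middle libraries shared between them, the log2 fold changes of the named gene models for middle versus bottom and for top versus middle were 7.62 and 0.25 for Vigun08g219000, 2.68 and 0.04 for Vigun07g296000, and -5.53 and 0.30 for Vigun08g210900. For Vigun05g166500 they were -1.33 and -1.11, and the second missed the threshold (edgeR adjusted p = 0.057).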

How the data were processed

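RNA sequencing of cowpea leaf punches gave 30 libraries, grouped by position, stage and replicate number from the sample titles. The labels' protocols name MagMAX for RNA extraction and Kapa HyperPrep for the mRNA libraries. The authors deposited raw counts per gene model. Per the submitters' processing notes, the tools were HISAT2, featureCounts and DESeq2, with no version or role stated. No source used here gives the genome build, the strand setting or how shared reads were counted, so counts of overlapping gene models (1084, of which 919 overlap the opposite strand; none of the named ones) and of near-identical copies are uncertain. The deposited exon lengths (an "other" unit, bases of merged exons) gave RPKM. The deposited normalized table was not used here.

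Gene models were kept by filterByExpr (20284 of 31948), scaled by TMM and fitted in edgeR 4.0.16 (R 4.3.3) with all 6 groups in 1 quasi-likelihood fit (24 residual degrees of freedom). Calls are Benjamini-Hochberg adjusted p under 0.05 over all tested. SE was obtained from the log2 fold change and its F statistic. Library measures used exact two-sided permutation tests over the 252 assignments of 10 libraries, adjusted over 6. CPM uses TMM-scaled library sizes; centred values used a prior count of 2. Same-numbered middle and bottom libraries deviated together at R1, with correlations from 0.185 to 0.524 in all 5 pairs. There 5 bottom and 4 middle libraries correlated best with their own number, so the numbers may pair at R1, which the labels do not state. At R3 the correlations ran from 0.048 to 0.457, and 2 bottom and 2 middle libraries correlated best with their own number. With a replicate block within stage the stage difference was again called in 0 gene models. All fold changes and calls in the text come from the fit without a block unless a replicate block is named. The fit was tested on 1 set of simulated data, where it recovered most large changes and few small ones, and more of its calls were false than the nominal share. Far fewer gene models were changed in that set than were called at R3, so its share of false calls is not that of the calls here. Named genes: in each direction, the largest fold change (5 CPM or more in the higher group) and the highest mean CPM (at least 2-fold), both called with ranges apart. For the stage difference and the midpoint contrast the rule named none, since none was called. Lists by product name were not analysed here, because identifiers come without products. Alternatives were other scalings, no filter, DESeq2 1.42.0, a replicate block, fewer groups and each library left out. Comparisons, members and gene classes were chosen with earlier results of these data known.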

Additional observations from a re-analysis of the deposited data

Results flagged for a closer look

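Of 36 groups of 5 values examined for a lone high or low library (the 4 named gene models in each of the 6 groups, and 6 library measures in 2 groups), 4 had one farther from the rest than Dixon's 95% criterion allows, where chance gives about 1 in 20 for normally distributed values. Of these, 3 belong to Vigun08g219000: middle replicate 2 at R1 (68.3 CPM, the other libraries up to 9.30), top replicate 2 at R1 (92.6 CPM, the others up to 15.3) and top replicate 2 at R3 (282 CPM, the others up to 35.1). The fourth is bottom replicate 4 at R1 for Vigun07g296000 (2752 CPM, the others up to 788). None lies in the middle or bottom libraries at R3. All 4 are the highest library of their group, and gene levels were examined as CPM without logs. Such levels can be skewed, as where the SD of Vigun08g219000 exceeds its mean, so the rate of 1 in 20 need not hold for them.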

How the results depend on the processing

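The count of gene models differing between middle and bottom leaves at R3 (4570) was 4142 to 5376 under other scalings, no filter and DESeq2, 3671 when the 10 libraries were fitted by themselves, and 2309 when a 2-fold difference was also asked for. Without single libraries it ran from 3184 to 5309. The replicate block within stage gave 4887, of which 4194 were called in the same direction as before, and a replicate block in the 2 groups alone, added after seeing the data, gave 3515. Same-numbered middle and bottom libraries at R3 correlated in their deviations by 0.048 to 0.457, and 2 of 5 bottom libraries correlated best with their own number, so the numbers were not taken as pairs. No gene model called at R3 changed the sign of its fold change in any of these fits. At R1 the replicate block gave 1677 calls (1581 without it), of which 1293 were called in the same direction before, and changed no R1 call of a named gene model. The stage difference (0) was 4 with DESeq2 and 1 by library size alone, and 0 to 1 without single libraries. The departure from the midpoint (0) was 53 with DESeq2 and 6 by library size alone, and 0 to 12 without single libraries. The cause of these changes was not tested. Library measures stayed short of the threshold under the alternatives run. Among these, the exchange of values within same-numbered pairs has too few arrangements with 5 pairs to pass it, so its outcome carries no weight. Without single libraries the middle minus bottom difference changed sign for gene models detected (-116 to 37.4) and for the single-exon share (-0.0532 to 0.55 percentage points). Of the named gene models, 3 kept their call in every fit run, and Vigun07g296000 lost it in the fits named above and with the replicate block in the 2 groups alone (log2 fold change 3.94, adjusted p = 0.063). Depth limits low levels: 3 counts over the 5 bottom libraries correspond to 0.0371 CPM, for counting error only.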

Other observations

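Between middle and bottom leaves at R3, few gene models had counts in all 5 libraries of a group and none in the other. Large differences with a few counts left, as in Vigun08g219000 (24 counts over the bottom libraries), fall outside this rule. Of the gene models tested, 59 had no count in any bottom library and 4 of these had counts in all 5 middle libraries, at up to 0.596 CPM on average. In the other direction 38 had no count in any middle library, and 1 of these had counts in all 5 bottom libraries, at 0.331 CPM. None of them reached 1 CPM.

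Gene models higher in the middle lay next to each other more often than the share of such gene models overall. Of 2557 higher gene models with a tested neighbour downstream in coordinates, 16.5% had a higher one there, beside 12.2% of the gene models that were not called and 12.8% of all tested. For lower gene models the neighbour was lower in 11.3%, beside 9.6%. Neighbours can be copies of each other that share reads, and this was not tested. The longest unbroken runs had 5 gene models, 3 runs in the higher and 2 in the lower direction. One, singled out after its values were seen, spans 9080080 to 9099465 on chromosome 3 and holds 5 single-exon gene models on both strands, with log2 fold changes from 3.22 to 5.08. The largest was in a gene model at 5.07 ± 10.2 CPM in middle (0 to 23.2) and 0.133 ± 0.163 CPM in bottom leaves. Only the gene model with 3.22 had middle and bottom ranges that did not overlap. The summed level of the 5 was 30.2, 45.7, 171, 815 and 59.9 CPM in middle replicates 1 to 5 and 5.02, 6.10, 31.5, 35.4 and 8.12 CPM in bottom replicates 1 to 5. The sums overlapped too, with middle replicate 1 below bottom replicates 3 and 4. Here middle replicate 4, the middle library nearest to the bottom ones over all genes, was the highest.

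Gene models whose exons overlap another on the opposite strand were called higher more often than others, 144 of 710 (20.3%) beside 2441 of 19487 without overlap (12.5%). Lower calls were 62 (8.73%) and 1908 (9.79%). By library size alone the 710 split into 112 higher (15.8%) and 101 lower (14.2%), beside 1866 higher and 3491 lower of all 20284, so the higher calls stayed more frequent than over all tested. Without strand information, reads of both partners cannot be told apart.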
